A study of Mus musculus with 8 samples.

Results

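Naive CD8+ T cells sense cytokines through receptor chains at their surface, and 27 of the 31 listed receptor chains and Janus kinases were expressed highly enough here to be tested. The 31 genes were chosen by name, whatever their level, as interleukin and interferon receptor chains and the Janus kinases that work beneath them. All 31 were found among the 55573 genes of the count table, of which 12500 passed the filter on low counts. RNA was sequenced from CD8+ T cells of male C57BL/6 mice, enriched magnetically from spleen and lymph nodes and then sorted as naive cells. The 8 libraries were 3 labelled WT and 5 labelled Furin KO. At harvest the mice of WT replicate 1 and Furin KO replicate 1 were 7 weeks old, and those of the 6 remaining libraries 8 weeks. The cells were used ex vivo, and the labels name no cytokine treatment. The labels name neither the Furin allele nor any Cre driver, nor do they state that every library came from its own mouse. The p-values therefore describe spread among these 8 libraries, some of which may be technical.

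FURIN is a protease that cleaves precursor proteins in the secretory pathway. Most cytokine receptors pair a chain that binds 1 cytokine with a chain shared by several. The paired chains bring Janus kinases together, the kinases phosphorylate STAT proteins, and the STATs enter the nucleus and switch on genes that include the SOCS inhibitors of the same receptors. The common gamma chain, Il2rg, is shared by the receptors for IL-2, IL-4, IL-7, IL-9, IL-15 and IL-21 and signals through JAK3, while gp130, encoded by Il6st, is shared by the receptors for IL-6, IL-11, IL-27 and LIF. Receptors of the IL-1, IL-18 and IL-17 families signal through adaptor proteins instead of Janus kinases. A resting naive T cell depends on IL-7 for its survival.

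Total counts were 11308220 to 21040431 per library, with the lowest in Furin KO replicate 5. The libraries were split here into 3 runs of consecutive title numbers, each with both genotypes. The labels do not name these runs. The first was the pair of 7 weeks, and the second WT replicate 2 with Furin KO replicates 2 and 3. The third was WT replicate 3 with Furin KO replicates 4 and 5. The second run stood apart in Fos, an early-response gene, at 85.8 to 204 CPM against 801 to 1075 CPM in the other 5 libraries. Furin itself stood at 69.3 ± 11.8 CPM in the Furin KO libraries (CPM, the count relative to the library's scaled total; mean ± SD, n = 5) against 63.5 ± 5.71 CPM (n = 3) in WT. Its level was thus not reduced, and a whole-gene count does not show which exons are present, so it checks no label. The 11 CD8 T cell markers summed to 12130 to 14180 CPM in WT and 12480 to 14730 CPM in Furin KO. The 9 B cell markers summed to 20.7 to 28.7 CPM in WT and 19.5 to 28.6 CPM in Furin KO, nearly all of it Cd79b (19.5 to 27.8 CPM), with Ms4a1, Cr2 and Fcer2a at 0 counts in every library. The 10 myeloid markers summed to 7.04 to 13.9 CPM and 5.32 to 14.8 CPM, led by Cd68 (3.40 to 12.5 CPM), with 6 at 0 counts, Csf1r and Adgre1 among them.

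The common gamma chain itself was the best expressed of the receptor chains. Levels of different genes are compared per length, as CPM per kb of annotated exon, with mean ± SD over all 8 libraries. Il2rg stood highest of the 31 genes at 226 ± 9.82 CPM per kb, above 99.0% of the 12500 tested genes. Gm20489, a gene with 0 counts, shares 30.5% of the exon bases of Il2rg on the same strand, so part of the Il2rg count is uncertain. Il7r, the chain that binds IL-7, was at 130 ± 20.8 CPM per kb and Il21r, which binds IL-21, at 111 ± 14.4 CPM per kb. Il2rb, the signalling chain for IL-2 and IL-15, and Il4ra, which binds IL-4, lay close together at 47.6 ± 4.16 and 46.1 ± 3.45 CPM per kb. Crlf2, which joins the IL-7 receptor chain to bind TSLP, was at 23.1 ± 4.46 CPM per kb. Il15ra, which presents IL-15, was at 3.74 ± 0.938 CPM per kb (7.17 on its longest transcript alone). Il2ra, the chain (CD25) that activated T cells add to bind IL-2 with high affinity, was at 0.118 ± 0.0899 CPM per kb, from 4 to 20 counts a library.

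Some chains of this family were at or near 0. Il9r had 0 counts in all 8 libraries, which allows at most 0.0208 CPM over the 144320747 counts (3 counts of the total, counting error only). Il13ra1, which joins Il4ra in the receptor for IL-13, had 1 count in WT replicate 3, 2 in Furin KO replicate 2, 2 in Furin KO replicate 4 and 0 elsewhere. Neither gene could be tested between groups.

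Among the gp130 and IL-12 families, Il27ra, the chain specific to IL-27, was far above the others at 129 ± 13.5 CPM per kb. Il6st was at 38.1 ± 3.23 CPM per kb and Il6ra, which binds IL-6, at 34.8 ± 3.68 CPM per kb. Il11ra1, which binds IL-11, was at 1.96 ± 0.701 CPM per kb (3.37 on its longest transcript alone). Lifr, the LIF receptor chain, had 2 counts in Furin KO replicate 2 and 0 in the other 7 libraries. Il12rb1, shared by the receptors for IL-12 and IL-23, was at 4.72 ± 1.55 CPM per kb. Il12rb2, the chain that makes the IL-12 receptor signal and that effector cells induce, was at 0.448 ± 0.338 CPM per kb, from 6 to 96 counts a library. Its count is uncertain, because 40.04% of its exon bases are also exon of Serbp1 on the opposite strand, a gene with 107457 counts against 262 for Il12rb2, and the strand setting of the counting is not given in the sources used here.

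All 6 chains of the interferon and IL-10 receptors were expressed. Ifngr1, the ligand-binding chain of the interferon-gamma receptor, was at 49.3 ± 6.39 CPM per kb and Ifngr2, its partner needed for signalling, at 13.1 ± 1.91 CPM per kb. The type I interferon chains Ifnar1 and Ifnar2 were at 30.4 ± 2.94 and 24.7 ± 1.56 CPM per kb (46.1 for Ifnar1 on its longest transcript alone). Il10rb was at 14.9 ± 1.28 CPM per kb and Il10ra, the chain specific to IL-10, at 5.39 ± 0.788 CPM per kb. Gm21970, a gene with 0 counts, shares 14.94% of the exon bases of Il10rb and 9.46% of those of Ifnar2 on the same strand. Part of the Il10rb and Ifnar2 counts is therefore uncertain. Of the receptors that use adaptor proteins, Il17ra was at 44.3 ± 4.12 CPM per kb and Il18r1, which binds IL-18, at 19.7 ± 3.76 CPM per kb. Il18rap, the accessory chain of the IL-18 receptor, was at 0.877 ± 0.446 CPM per kb, and Il1r1, the IL-1 receptor, had 0 counts in every library.

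The Janus kinases differed widely in level. Jak1, which serves nearly all of these receptors, was at 200 ± 6.77 CPM per kb, and Jak3, the partner of the common gamma chain, at 86.9 ± 13.5 CPM per kb. Jak2, which serves the interferon-gamma and IL-12 receptors, was at 32.1 ± 2.13 CPM per kb. Tyk2, which serves the type I interferon and IL-12 receptors, was at 22.5 ± 1.79 CPM per kb. On the longest transcript alone Jak1 was at 295, Jak3 at 115, Jak2 at 32.1 and Tyk2 at 32.0 CPM per kb. By that length Jak2 and Tyk2 were level. Insl3 shares 7.55% of the exon bases of Jak3 on the same strand, so part of the Jak3 count is uncertain.

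In the order of levels, Il2rg, Jak1 and the group led by Il7r did not overlap in their ranges over the 8 libraries. 5 of the 30 neighbouring pairs were apart in this way and 25 overlapped. Il7r, Il27ra, Il21r and Jak3 each overlapped the next, and Jak3 was apart from Ifngr1. From Ifngr1 down to Ifngr2 each gene overlapped its neighbour, and Ifngr2 was apart from Il10ra. The other gap lay between Il2ra and Il13ra1. 23 of the 31 genes had at least 1 CPM per kb in every library and 20 had at least 10. These levels depend on the length used, which the SD does not include. The union of exons was up to 92.1% longer than the longest transcript. On the longest transcript alone no gene moved more than 3 places in the order.

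**Figure D1:**
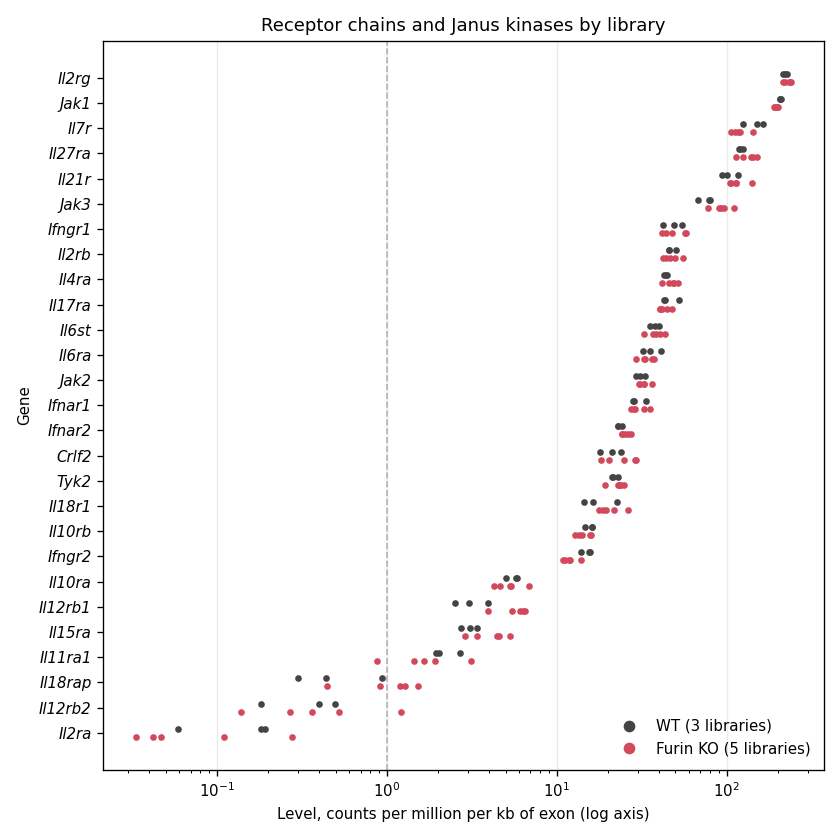
Level of the 27 tested genes in each library as CPM per kb of exon on a log axis, with WT libraries as dark points and Furin KO libraries as red points; the dashed line marks 1. Il2rg and Jak1 lie highest, a dense group spans Ifngr1 to Ifngr2, and Il11ra1, Il18rap, Il12rb2 and Il2ra lie lowest. Il9r, Il1r1, Lifr and Il13ra1 were not tested and are not drawn.

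A receptor needs all of its chains, so the 22 receptors formed by these genes were read by their lowest chain. 12 had every chain at 1 CPM per kb or more in every library. These were the receptors for IL-7, IL-21, IL-4 (with Il2rg), IL-27, IL-6, type I interferon, TSLP, interferon-gamma and IL-10, the IL-2 receptor without Il2ra, and the IL-15 receptor with or without Il15ra. The highest by its lowest chain was the IL-7 receptor, where Il7r ranged from 106 to 165 CPM per kb. The IL-21 receptor followed, where Il21r ranged from 93.4 to 141 CPM per kb.

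In 7 receptors at least 1 chain was under that level in every library, and in each the partner chain was present. The high-affinity IL-2 receptor was short of Il2ra, at 0.0334 to 0.277 CPM per kb, while Il2rb was at 42.3 CPM per kb or more. The IL-9 receptor was short of Il9r, the type II receptor for IL-4 and IL-13 of Il13ra1, and the LIF receptor of Lifr. The IL-1 receptor was short of Il1r1, although its accessory chain Il1rap was at 1.79 CPM per kb. The IL-23 receptor was short of Il23r, which had 0 counts in every library, and the IL-17A receptor of Il17rc, which had 2 counts in WT replicate 3, 2 in Furin KO replicate 4 and 0 elsewhere.

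The remaining 3 receptors lay near the line. IL-11 had its chains at 1 CPM per kb or more in 7 libraries, with Il11ra1 at 0.872 in Furin KO replicate 3. IL-18 did in 3 libraries, all labelled Furin KO, where Il18rap stood at 1.28, 1.19 and 1.52 CPM per kb. WT replicate 3 at 0.933 and Furin KO replicate 2 at 0.908 CPM per kb were just under the line. On its longest transcript alone the mean of Il18rap was 1.211 CPM per kb, so the line does not separate the genotypes. IL-12 had its chains at 1 CPM per kb or more in 1 library, Furin KO replicate 2, where Il12rb2 stood at 1.21 CPM per kb. These levels are RNA, and surface protein was not measured.

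**Figure D2:**
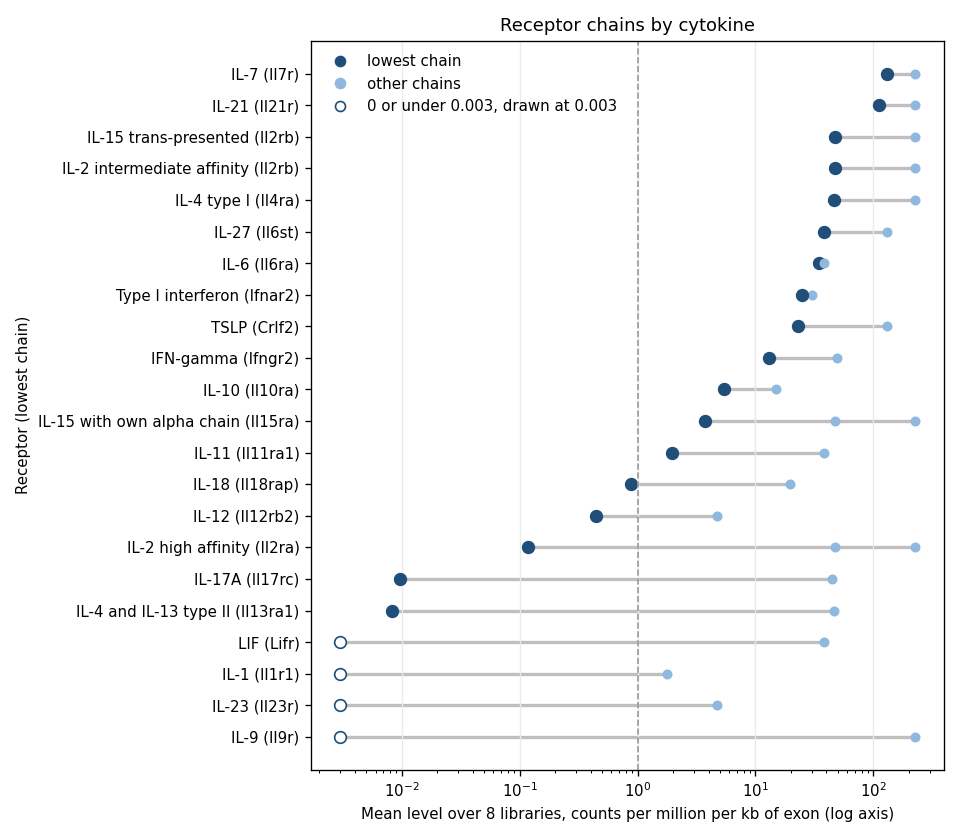
Each row is 1 receptor with its lowest chain in brackets; dark points give the mean level of that chain over 8 libraries and light points its partners, as CPM per kb of exon on a log axis, with the dashed line at 1. The IL-7 and IL-21 receptors lie furthest to the right, and the receptors for IL-9, IL-23, IL-1 and LIF have a chain at 0 or under 0.003, drawn as an open point.

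The comparison of genotypes asked whether the cells labelled Furin KO carry other levels of these transcripts. No member passed: 0 of the 27 tested had a Benjamini-Hochberg adjusted p under 0.05 in edgeR's quasi-likelihood fit, beside 4 of all 12500 genes (0.032%; 0.024% higher and 0.008% lower in Furin KO). By DESeq2 1 member passed (15 genes of all, 0.12%), by limma-voom 0. 6 members (22.2%) had an unadjusted p under 0.05, against 3.21% of all tested genes, 4 of them higher and 2 lower in the Furin KO libraries. 18 members (66.7%) had a log2 fold change above 0 and 9 below, beside 49.8% of all tested genes above 0. The median log2 fold change was 0.05, beside 0.00 over all genes (-0.001 to 3 decimals). The members were proposed with results of these data known, so these shares are a description. In bulk RNA, fewer cells that express a gene and less RNA per cell cannot be told apart.

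For most chains the data bound the difference closely. 16 of the 27 members had a 95% interval of the log2 fold change within -0.5 and 0.5, a change of less than 1.41-fold, and 5 had one within -0.25 and 0.25. Il2rg, Il6st and Il2rb, each part of several receptors, were among these 5, while the shared chain Il12rb1 was outside both bounds. Il2rg had a log2 fold change of 0.05 (interval -0.13 to 0.22), Il6st one of 0.02 (-0.18 to 0.22) and Il2rb one of 0.00 (-0.21 to 0.21). The widest interval was that of Il2ra, from -2.40 to 1.29, and the interval of Il12rb2 ran from -0.90 to 1.87.

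**Figure D3:**
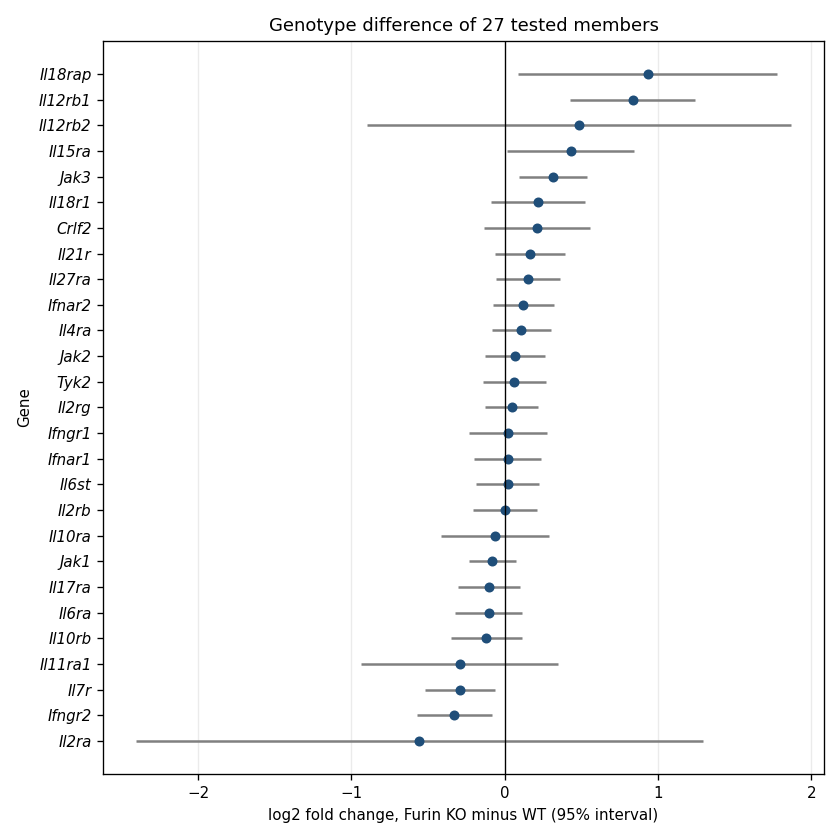
Points give the log2 fold change of each of the 27 tested genes, Furin KO minus WT, from edgeR over all genes, and bars its 95% interval. Il18rap (0.93) and Il12rb1 (0.83) lie furthest above 0 and Il2ra (-0.56) furthest below with a wide interval; 0 of the 27 passed after adjustment.

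Il12rb1, the shared chain of the IL-12 and IL-23 receptors, stood nearest to a call (ENSMUSG00000000791, GRCm38 chromosome 8, 70808449 to 70821424). WT replicates 1 to 3 had 12.6, 10.3 and 16.2 CPM, and Furin KO replicates 1 to 5 had 26.6, 26.1, 16.2, 24.8 and 22.4 CPM. 4 of the 5 Furin KO libraries lay above all WT libraries, and Furin KO replicate 3 was level with WT replicate 3. The means were 23.2 ± 4.24 CPM (n = 5) and 13.0 ± 2.96 CPM (n = 3), a 1.78-fold difference with a log2 fold change of 0.83 (SE 0.19, edgeR adjusted p = 0.460). DESeq2 called it (adjusted p = 0.0387), as did edgeR without the filter on low counts (adjusted p = 0.00522). Over all 17 alternatives the adjusted p ran from 0.00522 to 1.0 and the log2 fold change from 0.69 to 1.03. Within the 3 runs of libraries it had 26.6 against 12.6 CPM (n = 1 and 1), 21.1 against 10.3 (n = 2 and 1) and 23.6 against 16.2 (n = 2 and 1), higher in Furin KO in each.

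The other genes of IL-12 and IL-18 sensing were low. Il18rap had 2.95, 2.04 and 6.30 CPM in the WT libraries and 8.63, 6.13, 2.99, 8.05 and 10.3 CPM in the Furin KO libraries, so the groups overlapped. Its log2 fold change was 0.93 (SE 0.40, edgeR adjusted p = 0.9998), and it ran from 0.63 without WT replicate 2 to 1.53 without WT replicate 3, the highest WT library. Its partner Il18r1 had 99.9 ± 16.2 CPM (n = 5) against 86.1 ± 21.0 CPM (n = 3). Il12rb2 had 10, 36 and 27 counts in WT and 21, 96, 37, 29 and 6 in Furin KO, the highest in Furin KO replicate 2.

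Il15ra had 15.2, 13.7 and 12.2 CPM in WT and 20.5, 23.7, 15.1, 19.8 and 12.8 CPM in Furin KO (log2 fold change 0.43, SE 0.20, edgeR adjusted p = 0.9998). Furin KO replicates 3 and 5 lay within the WT range and the other 3 above it. IL-12, IL-15 and IL-18 are known to act mainly on memory and effector CD8 T cells, so the markers of those cells are given beside these chains. The 10 memory or activation markers summed to 598 to 699 CPM in WT and 636 to 706 CPM in Furin KO. Most of this was Nkg7 (264 to 361 CPM), Ly6c2 (151 to 228 CPM) and Id2 (90.7 to 173 CPM). Cd44 was at most 2.725 CPM, and Gzmk and Klrg1 were at 0 counts in every library. The 7 NK cell markers summed to 39.7 to 41.2 and 34.0 to 52.7 CPM, nearly all of it Eomes (33.6 to 51.4 CPM), with Ncr1 and Klra8 at 0 counts. The 8 markers of CD4 and regulatory T cells summed to 61.5 to 70.3 CPM in WT and 80.0 to 88.2 CPM in Furin KO, without overlap. The sum was mostly Izumo1r (mean 56.3 CPM in Furin KO against 39.85 CPM in WT), and Ctla4 and Tnfrsf4 also had higher means in Furin KO. Cd4, Foxp3, Zbtb7b, Cd40lg and Ikzf2 had lower means in Furin KO. Cd4 was at most 0.892 CPM and Foxp3 at most 2.28 CPM. The part of such cells in these values was not tested.

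Jak3 had 427, 419 and 364 CPM in the WT libraries and 499, 590.1, 416, 519 and 484 CPM in the Furin KO libraries. Furin KO replicate 3 lay within the WT range and the other 4 above it. The means were 502 ± 62.8 (n = 5) and 403 ± 34.4 CPM (n = 3), a log2 fold change of 0.32 (SE 0.11, edgeR adjusted p = 0.9998). Jak1 had 1514, 1493 and 1485 CPM in WT and 1424, 1431, 1454, 1374 and 1397 CPM in Furin KO. It was the only member of the 27 whose groups did not overlap (3.70%, against 2.90% of all genes tested, 1.59% lower and 1.31% higher in Furin KO), all Furin KO libraries being lower, and the difference was small, with a log2 fold change of -0.08 (SE 0.07, edgeR adjusted p = 0.9998). Jak2 had 164 ± 11.6 against 157 ± 9.24 CPM and Tyk2 157 ± 14.7 against 150.1 ± 7.17 CPM.

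Of the members lower in Furin KO, Ifngr2 had 58.2, 52.1 and 59.3 CPM in WT and 40.9, 42.2, 52.7, 45.0 and 44.2 CPM in Furin KO. Furin KO replicate 3 again lay within the WT range, and the other 4 lay below it. The log2 fold change was -0.33 (SE 0.12, edgeR adjusted p = 0.9998). Its partner Ifngr1 had 141 ± 20.7 against 139 ± 17.3 CPM, and Ifnar1 181 ± 19.6 against 179 ± 17.2 CPM. Ifnar2 had 84.8 ± 4.68 against 77.9 ± 2.49 CPM.

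Il7r had 768, 707 and 581 CPM in WT and 670, 545, 561, 524 and 494 CPM in Furin KO. WT replicate 3 lay among the Furin KO libraries. The means were 559 ± 66.9 (n = 5) and 686 ± 95.2 CPM (n = 3), a log2 fold change of -0.29 (SE 0.11, edgeR adjusted p = 0.9998). Within the runs of libraries it was lower in Furin KO each time, at 670 against 768 CPM, 553 against 707 CPM and 509 against 581 CPM. Il7r also had an unadjusted p under 0.05 by age in edgeR but did not pass (adjusted p = 0.152), as given further on. Of its partners, Il2rg had 545 ± 26.4 against 528 ± 15.6 CPM and Crlf2 36.4 ± 7.48 against 31.4 ± 4.43 CPM.

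**Figure D4:**
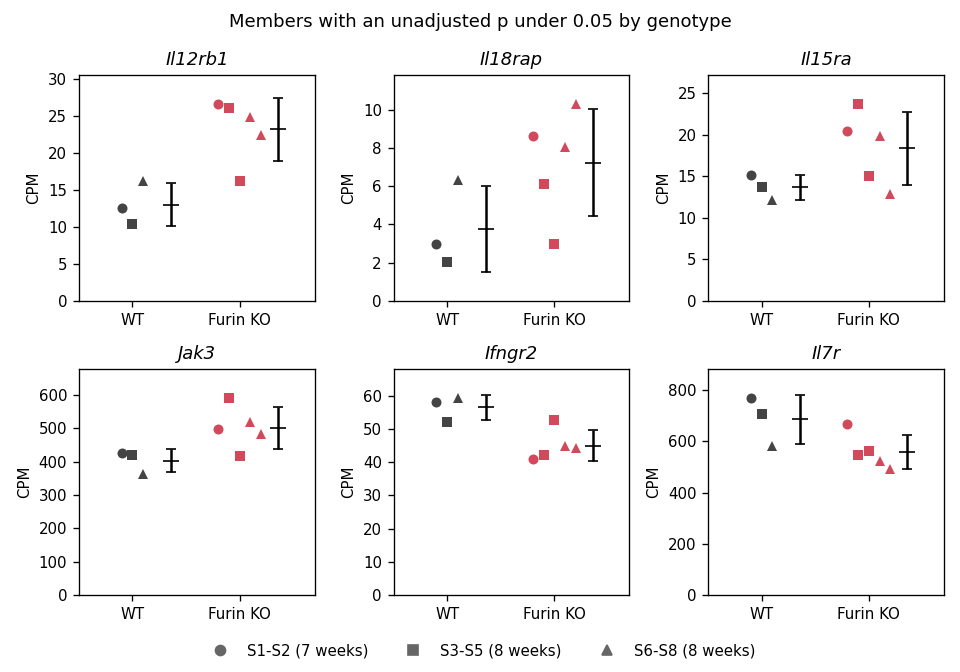
CPM of the 6 members with an unadjusted p under 0.05 by genotype, with 1 point per library, the shape giving the run of titles, and bars giving mean ± SD (n = 3 WT, n = 5 Furin KO); each axis starts at 0. In Il12rb1, Jak3 and Ifngr2 the square at the WT level is Furin KO replicate 3, while in Il7r WT replicate 3 lies among the Furin KO libraries.

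The remaining chains showed smaller differences. Il21r had 385 ± 49.2 against 343 ± 39.0 CPM, Il27ra 470 ± 52.7 against 423 ± 13.2 CPM and Il4ra 284 ± 22.9 against 264 ± 6.47 CPM. Il6ra had 292 ± 28.7 against 314 ± 38.1 CPM and Il17ra 373 ± 28.1 against 401 ± 46.7 CPM. Il10ra had 18.5 ± 3.43 against 19.4 ± 1.55 CPM, Il10rb 54.9 ± 5.07 against 59.6 ± 3.27 CPM and Il11ra1 8.07 ± 3.72 against 9.94 ± 1.87 CPM. In each of these the groups overlapped. By family, 6 of 8 tested common gamma chain members, 4 of 6 of the gp130 and IL-12 families, 3 of 6 interferon and IL-10 chains, 2 of 3 adaptor-linked chains and 3 of 4 kinases were above 0. Of all tested genes 49.8% were above 0. Il2rb (0.002) and Il6st (0.019) count here as above 0, and both turned in some alternatives.

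Promoter windows, 250 bases before to 50 after the start site, were matched for 25 of the 31 members (RefSeq, GRCm38.p6). They are shown for the 3 members with the lowest p by genotype and the 1 with the lowest p by age, among those with a window. Capitals mark matches to the sequence bound by STAT proteins, TTC and GAA with 3 bases between them (TTCNNNGAA), or with 4 bases between them. Both strands were searched, and both forms read the same on either strand. Il7r lies at chr15:9529827-9530126 (minus strand), Ifngr2 at chr16:91546809-91547108 (plus), Jak3 at chr8:71676133-71676432 (plus) and Il18r1 at chr1:40465756-40466055 (plus), the 1 of its 3 windows with most matches.
Il7r: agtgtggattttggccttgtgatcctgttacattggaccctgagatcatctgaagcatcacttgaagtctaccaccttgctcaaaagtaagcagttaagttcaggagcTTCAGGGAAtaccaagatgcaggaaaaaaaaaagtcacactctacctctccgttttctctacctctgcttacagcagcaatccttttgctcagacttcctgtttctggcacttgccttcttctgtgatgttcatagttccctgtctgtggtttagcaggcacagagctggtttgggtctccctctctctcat
Ifngr2: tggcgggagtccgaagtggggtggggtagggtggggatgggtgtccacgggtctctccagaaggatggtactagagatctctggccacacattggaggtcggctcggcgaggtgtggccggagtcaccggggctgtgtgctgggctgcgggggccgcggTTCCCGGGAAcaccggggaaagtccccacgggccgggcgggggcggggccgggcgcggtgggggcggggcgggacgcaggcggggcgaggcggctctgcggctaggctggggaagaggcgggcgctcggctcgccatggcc
Jak3: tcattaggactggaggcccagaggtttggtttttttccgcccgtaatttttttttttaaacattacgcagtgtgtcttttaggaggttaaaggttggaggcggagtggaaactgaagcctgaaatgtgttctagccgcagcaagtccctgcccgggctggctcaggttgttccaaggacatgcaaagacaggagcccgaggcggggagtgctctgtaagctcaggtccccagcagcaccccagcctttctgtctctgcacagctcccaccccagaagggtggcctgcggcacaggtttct
Il18r1: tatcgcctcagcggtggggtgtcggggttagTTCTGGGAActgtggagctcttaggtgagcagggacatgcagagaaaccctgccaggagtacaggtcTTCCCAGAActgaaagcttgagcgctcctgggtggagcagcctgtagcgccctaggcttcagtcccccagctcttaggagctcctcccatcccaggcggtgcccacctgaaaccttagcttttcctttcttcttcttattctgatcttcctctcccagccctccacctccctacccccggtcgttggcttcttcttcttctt

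The shorter form was found in 5 of the 25 members, Il7r, Il12rb2, Il18r1, Ifnar1 and Ifnar2, and in 8.3% of all 32851 windows (16.1% of the 31 member windows). The longer form was found in Il18r1, Il18rap and Ifngr2 (7.0% of all windows). The interferon response motif, a repeat of GAAA with 2 bases between, was in 0 member windows (3.4% of all), and the RUNX motif TGTGGT was in 8 members (16.8% of all windows), Il7r, Il21r and Il2rg among them. The Jak3 window held none of these. A match is a description of letters, not a bound site.

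Downstream of the receptors, the 7 STATs were all tested and 0 passed by edgeR, DESeq2 or limma-voom. Of the 7, 6 had a log2 fold change above 0, beside 49.8% of all tested genes. In edgeR 1 had an unadjusted p under 0.05, beside 3.21% of all. Stat3, which follows IL-6 and IL-21, had 299 ± 32.5 against 265 ± 18.6 CPM (n = 5 and 3), and Stat5a, which follows IL-2 and IL-7, 98.9 ± 9.29 against 89.4 ± 5.34 CPM.

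Of the SOCS proteins and other inhibitors 22 were tested, with 6 above 0 and 16 below, beside 49.8% of all tested genes above 0. In edgeR 2 had an unadjusted p under 0.05, beside 3.21% of all. Of these 22, 1 passed by each of the 3 tools, beside 0.032% of all genes by edgeR and 0.12% by DESeq2. That gene, Socs3, which binds gp130 and Janus kinases, rose from 236 ± 8.30 to 445 ± 70.0 CPM (log2 fold change 0.92, SE 0.12, edgeR adjusted p = 0.00164), while its receptor chain Il6st stood at 425 ± 43.5 against 420 ± 25.8 CPM. Pias3, an inhibitor of STAT3, had 18.6 ± 3.35 against 25.1 ± 1.86 CPM (log2 fold change -0.43, edgeR adjusted p = 0.9998). Cish, a target of STAT5, had 7.50 ± 3.42 against 9.84 ± 1.70 CPM, and Socs6 14.0 ± 1.86 against 17.0 ± 4.07 CPM.

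Of 24 adaptors and target genes 0 passed by edgeR or limma-voom and 1 by DESeq2, beside 0.12% of all tested genes by DESeq2. In edgeR 3 of the 24 had an unadjusted p under 0.05, beside 3.21% of all tested genes. Bcl3, a partner of NF-kB, had 72.0 ± 16.6 against 48.0 ± 5.19 CPM (log2 fold change 0.59, edgeR adjusted p = 0.792), and edgeR without the filter called it (adjusted p = 0.00242). The gene called by DESeq2 was Tbx21, the effector transcription factor T-bet, at 6.73 ± 1.501 against 2.02 ± 0.826 CPM (log2 fold change 1.74, SE 0.35, edgeR adjusted p = 0.171), named here after its values were seen. Myc had 308 ± 79.4 against 245 ± 30.2 CPM and the kinase Pim3 35.0 ± 7.20 against 43.6 ± 10.8 CPM.

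Of 36 other receptor chains 8 were tested and 0 passed by edgeR, DESeq2 or limma-voom, with 0 at an unadjusted p under 0.05, and 19 had 0 counts in every library. Crlf3 had 210 ± 32.8 against 234 ± 6.97 CPM, Il3ra 10.1 ± 3.51 against 8.91 ± 1.45 CPM and Il1rap 19.8 ± 2.76 against 21.3 ± 4.29 CPM. Of 28 cytokine ligands 5 were tested and 0 passed by these tools, with 0 at an unadjusted p under 0.05, and 16 had 0 counts in every library. The ligands named by the rule were Il16 (432 ± 52.8 against 448 ± 42.0 CPM), Osm (20.2 ± 3.62 against 17.6 ± 0.456 CPM) and Tnf (34.9 ± 15.8 against 39.3 ± 20.7 CPM).

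The labels also give 2 ages, each with both genotypes, and age was tested with genotype in the model. The 2 libraries of 7 weeks are also the first run of titles, so age and run cannot be told apart. By edgeR 42 of 12500 genes (0.336%) passed, and 0 of the 27 members did. By DESeq2 2 members passed, beside 382 of the 7168 genes it gave an adjusted p (5.33%), and by limma-voom 1, beside 114 genes (0.912%). An unadjusted p under 0.05 was found for 6 members (22.2%), beside 13.5% of all tested genes. With 1 library left out, the count of all genes was 0 without Furin KO replicate 1 or 2, 1 without WT replicate 1, 11 without WT replicate 3, 21 without Furin KO replicate 4 and 19 without Furin KO replicate 5.

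Il18r1 stood nearest to a call by age. It had 110 and 126 CPM in the libraries of 7 weeks (WT and Furin KO replicate 1) and 69.9 to 104 CPM in the 6 of 8 weeks, with no overlap. The log2 fold change, 8 weeks minus 7, was -0.49 (SE 0.10, edgeR adjusted p = 0.0542). DESeq2 (adjusted p = 0.00138) and limma-voom (adjusted p = 0.0331) called it, and over 13 alternatives the adjusted p ran from 0.00138 to 0.634. Il7r had 768 and 670 CPM at 7 weeks and 494 to 707 CPM at 8 weeks, overlapping (log2 fold change -0.30, SE 0.09, edgeR adjusted p = 0.152), and DESeq2 called it (adjusted p = 0.0308; range over 13 alternatives 0.0203 to 0.748).

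The other 4 members with an unadjusted p under 0.05 by age did not pass in any alternative. Il11ra1 had 12.1 and 14.0 CPM at 7 weeks and 3.90 to 9.08 at 8 weeks. Il17ra had 454 and 416 against 349 to 388 CPM, and Ifnar1 199 and 209 against 163 to 193 CPM. Crlf2 went the other way, with 26.9 and 27.2 CPM at 7 weeks and 30.4 to 44.1 CPM at 8 weeks. In these 4 genes and Il18r1 the ages did not overlap, 5 of 27 members (18.5%) beside 16.2% of all tested genes. The interaction of genotype and age, added after the data were seen, passed for 0 of the 27 members and 0 genes in all by edgeR, with 0 members at an unadjusted p under 0.05 and 2.97% of all genes.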

How the data were processed

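The authors deposited 1 table of raw counts per Ensembl gene, whose columns were matched to samples through their titles. Furin KO replicate 4 is placed beside the WT columns there, and the label decided its group. Per the submitters' processing notes, the tools were FastQC, Trim Galore, STAR and DESeq2 1.24.0, on GRCm38. What counted the reads, on which annotation and strand and with what rule for multiple matches, is not given in the sources used here. Symbols and exon lengths came from GENCODE M21 (55480 IDs matched, 93 did not).

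Genotype was tested in R 4.3.3 by the quasi-likelihood F test of edgeR 4.0.16, after TMM scaling and the filterByExpr filter, with no covariate; the age fit also held genotype. The threshold was 0.05 on the p-value after Benjamini-Hochberg adjustment. SE and 95% intervals were taken from the F statistic and its degrees of freedom. CPM per kb divides TMM-scaled CPM by the union of exons. On simulated data the test recovered 46.3% of genes changed 1.5-fold, 76.1% of those changed 2-fold and 92.4% of those changed 4-fold. Of its 151 calls 8 were false. The simulated libraries held no difference of age or run. A member with a change of such size can therefore be missed. Alternatives were other size factors, filters and lengths, DESeq2 1.42.0, limma-voom (limma 3.58.1), age or library run as a factor, the 8-week libraries alone and each library left out. Genes outside the 31 were named by rule: those past the threshold, then the 3 of each list with the largest fold change at a mean of at least 5 CPM, and chains that complete a receptor. Members and lists were chosen with earlier results of these data known. Replicate numbers follow accession order and pair nothing. 1 gene chosen by this rule is left out of the text.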

Additional observations from a re-analysis of the deposited data

Results flagged for a closer look

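In 4 of 47 genes, 1 Furin KO library lay far from the other 4, where chance gives about 2.35. That figure does not hold for Lifr and Il17rc, where the other 4 are at 0 and any count is flagged. The 4 flags are thus not to be compared with it. Il21r was at 470 CPM (469.5) in Furin KO replicate 2 against 350.0 to 379 CPM in the others. Lifr was at 0.0958 CPM, which is 2 counts, in Furin KO replicate 2 and at 0 in the others, and Il17rc at 0.0953 CPM, also 2 counts, in Furin KO replicate 4 and at 0 in the others. Myc was at 170 CPM (170.3) in Furin KO replicate 3 against 312 to 362 CPM in the others.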

How the results depend on the processing

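No paired analysis was possible because the labels give no replicate number shared by the groups. The library run, a split made here along the order of titles with both genotypes in each run, entered as a factor instead. The genotype test called 4 genes in all, 38 without the filter on low counts, 15 by DESeq2, 12 with the library run as a factor and 3 to 5 with each library left out. Members called were 0, but 1 without the filter and 1 by DESeq2, Il12rb1 each time. The age test called 42 genes, 278 without the filter, 382 by DESeq2, 114 by limma-voom, 371 with the 8-week runs as a factor and 0 to 58 with each library left out. Members called by age were 0, but 1, 2, 1 and 2 under those settings in that order and 0 to 1 with each library left out. The causes were not tested.

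Over 17 alternatives to the genotype test, 20 of the 27 members kept the direction of their log2 fold change, and 7 turned. Il2rb was at -0.004 by limma-voom, -0.013 with age and -0.016 with the library run as a factor, and at -0.057 to 0.049 with each library left out. Il6st was at -0.029 in the 8-week libraries and at -0.023 to 0.071 with each library left out. Leaving out each library gave -0.172 to 0.007 for Il10ra, -0.141 to 0.788 for Il12rb2, -0.153 to 0.002 for Il17ra, -0.067 to 0.116 for Ifngr1 and -0.034 to 0.105 for Ifnar1. Among genes outside the 31 it gave -0.045 to 0.288 for Il3ra, -0.229 to 0.059 for Il1rap, -0.505 to 0.286 for Tnf and -0.119 to 0.025 for Il16. In the 13 age alternatives the 6 members named by age kept their direction. Il2ra and Il12rb2 rest on few counts.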

Other observations

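The balance of chains was read as the ratio of their levels per length in each library, which no scaling between libraries alters. These 17 ratios were chosen after the data were seen and carry no test. Jak3 to Jak1 stood at 0.381, 0.380 and 0.331 in the WT libraries and 0.473, 0.557, 0.386, 0.511 and 0.468 in the Furin KO libraries, all of them above WT. Ifngr2 to Ifngr1 stood at 0.283, 0.326 and 0.319 in WT and 0.229, 0.195, 0.245, 0.270 and 0.281 in Furin KO, all of them below WT, the last by a narrow gap. In the other 15 ratios the groups overlapped. Il4ra to Il2rg, for example, stood at 0.194 to 0.216 over the 8 libraries. No share over all gene pairs was computed to set beside these counts. Jak3 and Ifngr2 had an unadjusted p under 0.05 by genotype in edgeR, and the groups of Jak1 did not overlap. The ratios Jak3 to Jak1 and Ifngr2 to Ifngr1 therefore restate differences already given.

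The members also varied to different degrees among the 8 libraries, taken here with both genotypes together, so that a difference between genotypes adds to the variation. Jak1 had a coefficient of variation of 3.38% and Il2rg one of 4.35% over the 8 libraries, the lowest of the 25 members with a mean of at least 5 CPM. Il18rap had 50.9%, Il11ra1 35.8% and Il12rb1 32.8%, the highest of the 25. Their median was 10.6%, beside 12.5% over the 9275 tested genes at that level. Of the 6 members with an unadjusted p under 0.05 by genotype, 4 had Furin KO replicate 3 as the Furin KO library closest to the WT mean: Il12rb1, Il18rap, Ifngr2 and Jak3.

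Among receptor chains outside the 31, named after their values were seen, Crlf3 was at 51.5 CPM per kb and Sigirr, an inhibitory member of the IL-1 receptor family, at 47.6 CPM per kb, levels like those of Ifngr1 and Il2rb.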
